A study of Mus musculus with 7 samples.

Results

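DNA replication and S phase genes encode the proteins that open replication origins, copy DNA, supply its building blocks and pack the copied DNA into chromatin. The set was fixed by gene symbol and holds 44 genes. For each gene 1 probe set was taken, the one with the highest mean signal over the 7 arrays. 42 of the 44 genes had a probe set, of 12393 genes with a probe set of a single symbol. Chaf1a and Gins2 had none and carry no value. All 42 passed the filter on low signals. Tyms passed it only through 2 of the allogeneic groups, isotype and anti-ICOSL from day 0, and read lower on the syngeneic array.

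Before S phase the origin recognition complex, CDC6 and CDT1 load the MCM2 to MCM7 helicase onto DNA, a step called licensing. CDC45 and GINS then switch the helicase on, and cyclin E with its kinase and the E2F factors drive cells from G1 into S phase. DNA polymerases alpha, delta and epsilon copy the strands, and the clamp PCNA holds delta and epsilon in place. Ribonucleotide reductase and its partner enzymes make the deoxynucleotides. Many of these genes are transcribed at the border of G1 and S phase, so their transcripts are widely used as signs of dividing cells. After an allogeneic transplant donor T cells divide in the recipient's spleen, and lymphocytes moved into an irradiated syngeneic host can divide there too.

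The study asked how the costimulatory receptor ICOS and its ligand ICOSL act in acute graft-versus-host disease, the attack of donor T cells on the recipient. Every recipient was a female C57BL/6 (B6) mouse aged 9 to 12 weeks that had been given 10.0 Gy from a caesium source and, 4 to 6 h later, an intravenous transfer of splenocytes freed of red cells. Spleen cells were collected on day 4 and 10 µg of RNA was labelled per array. In the syngeneic group the donors were B6 mice and the labels name no antibody (1 array). In the 3 allogeneic groups the donors were C3H mice (C3H/HeN), with 2 arrays each. One was given an isotype control (control rat IgG), another a monoclonal antibody against ICOSL from day 0, and the third the same antibody from day 3. Antibody was injected at 500 µg and then at 200 µg every other day. On that schedule a start on day 3 left time for the 500 µg dose alone before collection on day 4. Number of doses, total antibody and time under antibody thus differ with the start day and cannot be told apart from it. No label says on which day isotype injections began. The 2 arrays of an allogeneic group carry pooled RNA of several mice. P-values, standard errors and intervals thus measure the spread between arrays, which may be technical, and not that between mice. Donor strain, allogeneic response and antibody injection cannot be told apart in any comparison with the syngeneic array. The labels name an antibody for the allogeneic groups alone. Fewer dividing cells and less RNA per dividing cell cannot be told apart in these bulk samples either.

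Stretches of the members' promoters are shown first, because many of these genes are known targets of E2F factors. A part of E2F factors in the members' values was not tested. Sequences are from RefSeq (build GRCm38.p6). 37 of the 44 genes had an entry, and Ccne2, Pole, Gins1, Rfc2, Prim2, Mcm4 and Gins2 had none. The 250 bases before each start were searched on both strands for TTTCCCGC, TTTGGCGC, TTTCGCGC and TTTGCCGC, forms of the site that E2F factors are known to bind, and for CCAAT, the box of the factor NF-Y. At least 1 of the 4 E2F forms stood in 8 of 37 members (21.6%) and in 2.16% of 27025 genes. CCAAT stood in 21 of 37 members (56.8%) and in 37.5% of all genes. In the windows of 72 bases below, 5′ to 3′ on the gene's strand, capitals mark E2F forms in the 8 members that held one. Matches on opposite strands overlap in Mcm5 and Mcm6.

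Orc1 promoter, chr4:108579382-108579453, plus strand: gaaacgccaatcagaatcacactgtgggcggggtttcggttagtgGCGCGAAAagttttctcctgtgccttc
Cdc6 promoter, chr11:98907981-98908052, plus strand: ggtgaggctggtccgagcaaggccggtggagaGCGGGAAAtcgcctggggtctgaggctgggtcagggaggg
Mcm5 promoter, chr8:75109326-75109397, plus strand: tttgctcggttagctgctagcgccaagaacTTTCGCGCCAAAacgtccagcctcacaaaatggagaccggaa
Mcm6 promoter, chr1:128359744-128359815, minus strand: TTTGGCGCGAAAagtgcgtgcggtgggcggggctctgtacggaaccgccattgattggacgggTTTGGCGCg
Mcm7 promoter, chr5:138172009-138172080, minus strand: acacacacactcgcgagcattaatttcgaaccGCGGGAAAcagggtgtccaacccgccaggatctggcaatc
Pola1 promoter, chrX:93632254-93632325, minus strand: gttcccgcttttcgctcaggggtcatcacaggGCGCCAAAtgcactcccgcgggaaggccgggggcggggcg
Rfc3 promoter, chr5:151651209-151651280, minus strand: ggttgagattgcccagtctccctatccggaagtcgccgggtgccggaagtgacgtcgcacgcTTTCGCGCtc
Uhrf1 promoter, chr17:56304096-56304167, plus strand: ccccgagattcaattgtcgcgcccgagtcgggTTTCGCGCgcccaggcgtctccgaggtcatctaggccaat

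Rrm2 and Cdc45, the members with the largest rises over the syngeneic array, held no E2F form. The capitals in their windows mark the CCAAT box, read as ATTGG on the opposite strand in Cdc45. Tk1 and Dut held neither motif. These windows were picked after the matches and the array results were seen. A match is a description of the letters and not a bound site, and a missing match says only that these letters are not in this window.

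Rrm2 promoter, chr12:24708171-24708242, plus strand: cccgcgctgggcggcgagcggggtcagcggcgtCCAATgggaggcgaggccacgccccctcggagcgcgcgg
Cdc45 promoter, chr16:18811973-18812044, minus strand: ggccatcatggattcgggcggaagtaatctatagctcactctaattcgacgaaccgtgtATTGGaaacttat

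Most members read higher on the isotype arrays than on the syngeneic array, and 3 passed the test. Rrm2, Cdc45 and Tk1 rose 2.40-fold, 2.24-fold and 2.05-fold. Log2 changes are differences of log2(signal + 50), the signal being the deposited MAS5 intensity, and ± gives the standard error of the limma fit. A gene was called at an adjusted p under 0.05 (limma, Benjamini-Hochberg over 15372 tested probe sets). The 3 called members are 7.14% of the 42, beside 6.62% of all tested probe sets called in either direction and 2.49% called higher. No member was called lower, beside 4.12% of all probe sets. The median log2 change of the members was 0.47, beside -0.01 over all tested probe sets. 36 members lay above 0 (85.7%, beside 49.3% of all probe sets). Both isotype arrays exceeded the syngeneic array for 32 members (76.2%, beside 38% of all probe sets) and lay under it for 4 (9.52%, beside 38.8%). Without Tyms, 35 of 41 lay above 0, both isotype arrays exceeded the syngeneic array for 31, and the median was 0.47. At an unadjusted p under 0.05 there were 15 members (35.7%), beside 23% of all probe sets.

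**Figure D1:**
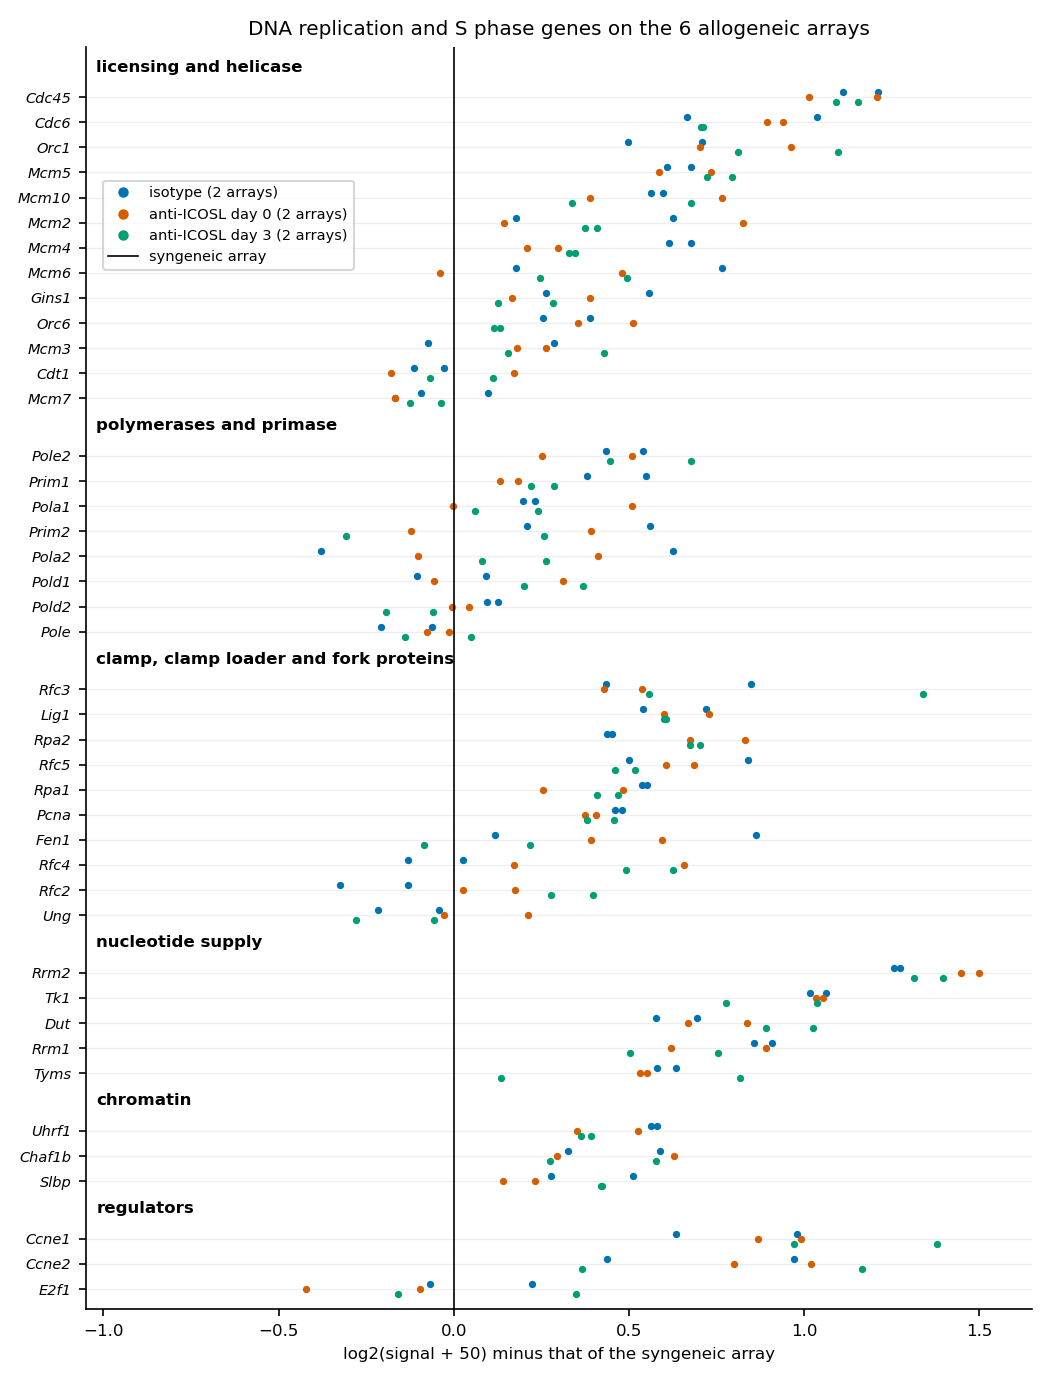
Each point is the log2(signal + 50) of 1 member on 1 of the 6 allogeneic arrays minus that on the syngeneic array (vertical line at 0), with members grouped by role and sorted within it. Points of the nucleotide supply genes all lie to the right of the line, those of the polymerase genes lie on both sides of it, and the 3 antibody groups overlap in most rows.

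The enzymes of deoxynucleotide supply held 2 of the 3 called members. Rrm2 and Rrm1 encode the small and the large subunit of ribonucleotide reductase, which turns ribonucleotides into deoxynucleotides. Rrm2 signals were 3314 on the syngeneic array, 7984 and 8074 with isotype antibody, 9461 and 9123 with anti-ICOSL from day 0, and 8805 and 8312 with anti-ICOSL from day 3. All 6 allogeneic arrays lay far above the syngeneic one and close to each other. The isotype arrays exceeded it by a log2 change of 1.26 ± 0.19 (adjusted p = 0.0155). Rrm1 signals were 2466 (syngeneic), 4501 and 4669.9 (isotype), 3813 and 4616 (day 0), and 4194 and 3517 (day 3). It did not pass, with a log2 change of 0.88 ± 0.23 (adjusted p = 0.0756), although no allogeneic array came near the syngeneic level.

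Tk1, the cytosolic thymidine kinase that salvages thymidine, read 1035 on the syngeneic array, 2145 and 2215 with isotype antibody, 2201 and 2171 with anti-ICOSL from day 0, and 2177 and 1808 with anti-ICOSL from day 3. The groups did not overlap with the syngeneic array, and the isotype change was 1.04 ± 0.21 (adjusted p = 0.0370). Dut, the enzyme that removes dUTP and yields the precursor of thymidylate, read 1203 (syngeneic), 1975 and 1817 (isotype), 1939.7 and 2188 (day 0), and 2272 and 2499 (day 3). Its day 3 arrays were the highest, and its isotype change of 0.63 ± 0.20 did not pass (adjusted p = 0.131). Tyms, the thymidylate synthase, read 54.0 (syngeneic), 105 and 111 (isotype), 102 and 100.2 (day 0), and 64.1 and 133 (day 3). These are dim signals close to the filter of 99.67, the pair of day 3 arrays spanned the other allogeneic arrays, and the isotype change of 0.61 ± 0.30 did not pass (adjusted p = 0.293). Without Tyms, which could enter only as a higher value, the 4 genes of this role had a median log2 change of 0.96.

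**Figure D2:**
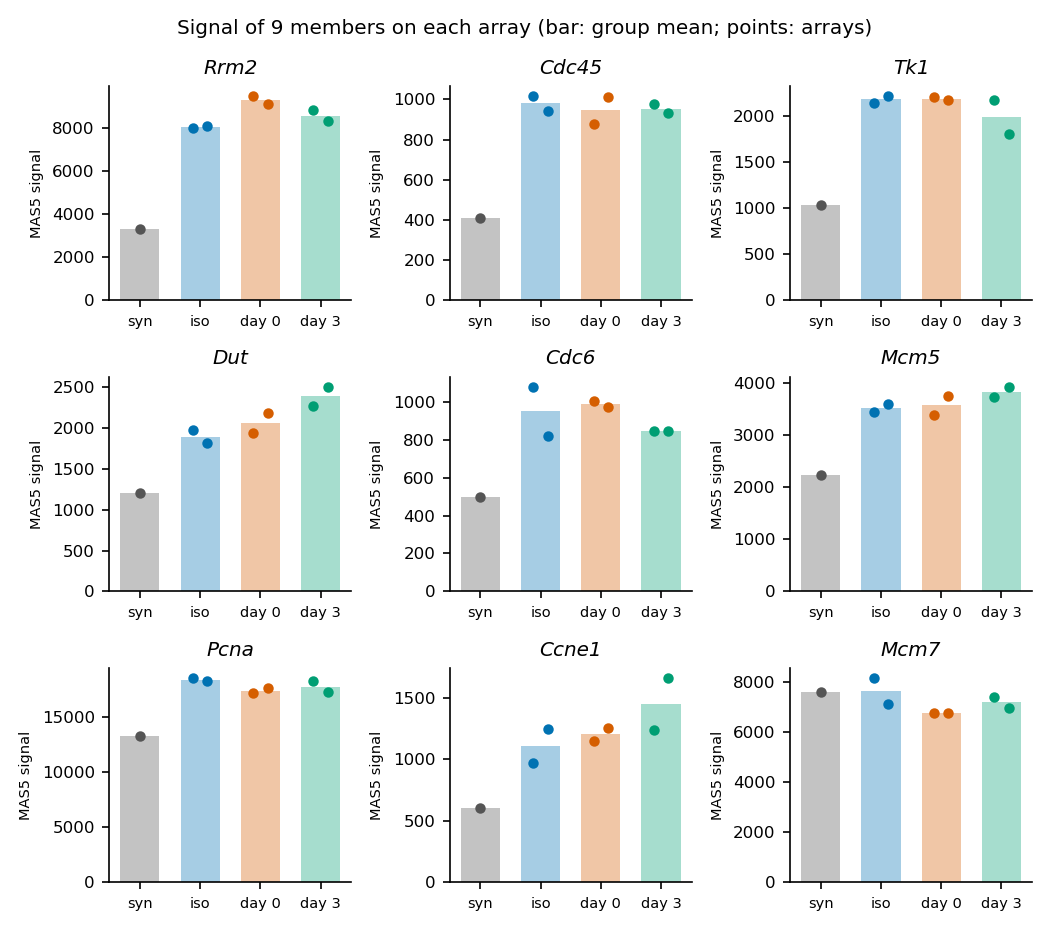
Deposited MAS5 signal (linear axis from 0) of 9 members on each array: points are arrays, bars are group means of 1 syngeneic array and 2 arrays per allogeneic group (iso, isotype; day 0 and day 3, anti-ICOSL from that day). The syngeneic point is the lowest in every panel except that of Mcm7, where it is 7614 beside 6771 to 8157 on the allogeneic arrays.

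Among the licensing and helicase genes, Cdc45 stood out. CDC45 joins the loaded MCM ring to form the active helicase. Its signals were 410.4 on the syngeneic array, 1016 and 944 with isotype antibody, 879.8 and 1014 with anti-ICOSL from day 0, and 975 and 930.3 with anti-ICOSL from day 3. The 6 allogeneic arrays lay close together and all far above the syngeneic one, with an isotype change of 1.16 ± 0.20 (adjusted p = 0.0245). It was the only gene called among the 13 of this role with a probe set, whose median log2 change was 0.47.

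Cdc6, which loads the MCM ring, read 499 (syngeneic), 1076 and 821 (isotype), 1002 and 970.0 (day 0), and 844 and 847 (day 3). Its change of 0.85 ± 0.23 did not pass (adjusted p = 0.0825), though all 6 allogeneic arrays exceeded the syngeneic one. Orc1, the large subunit of the origin recognition complex, read 188 (syngeneic), 339 and 286 (isotype), 338 and 414 (day 0), and 459 and 368 (day 3). The allogeneic arrays were again all higher, with an isotype change of 0.60 ± 0.24 (adjusted p = 0.201). Orc6 of the same complex read 565 (syngeneic), 755 and 683 (isotype), 826 and 735 (day 0), and 624 and 615 (day 3). It showed a smaller isotype change of 0.32 ± 0.20 (adjusted p = 0.393), and its day 3 arrays were the lowest of the allogeneic ones.

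None of the 6 subunits of the MCM ring passed the test, and their values ranged widely. Mcm5 read 2238 (syngeneic), 3438 and 3607 (isotype), 3381 and 3759 (day 0), and 3725 and 3921 (day 3), a tight group of allogeneic arrays above the syngeneic one (isotype change 0.64 ± 0.20, adjusted p = 0.117). Mcm4 read 2702 (syngeneic), 4346 and 4159.5 (isotype), 3128 and 3332 (day 0), and 3407 and 3445 (day 3). Its isotype change was 0.64 ± 0.19 (adjusted p = 0.106), and all 4 anti-ICOSL arrays lay between the syngeneic and the isotype signals. Mcm6 (3538 on the syngeneic array and 3439 to 6053 on the allogeneic arrays) and Mcm2 (2094 on the syngeneic array and 2319.5 to 3748 on the allogeneic arrays) had isotype changes of 0.47 and 0.40 with wide spreads between arrays of a group. Mcm3 changed by 0.11 and Mcm7 by 0.00, and for both the syngeneic signal lay within the range of the allogeneic arrays. Mcm10, a factor of helicase activation, went from 668 on the syngeneic array to 857 to 1170.3 on the allogeneic ones (isotype change 0.58). Gins1, a subunit of the GINS complex, went from 369 to 408 to 567 (isotype change 0.41). Cdt1, the partner of CDC6 in licensing, read 3637 (syngeneic), 3358 and 3569.5 (isotype), 4107 and 3206 (day 0), and 3470.3 and 3935 (day 3), with the syngeneic signal inside the allogeneic range and an isotype change of -0.07.

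The polymerase and primase genes had a median log2 change of 0.17, and none of 8 was called. Pola1, the catalytic subunit of polymerase alpha, read 592 (syngeneic), 686 and 704 (isotype), 862 and 590.3 (day 0), and 709 and 619 (day 3). One day 0 array matched the syngeneic array and the other was the highest of all 7 (isotype change 0.22 ± 0.26, adjusted p = 0.679). Pole, the catalytic subunit of polymerase epsilon, read 609 (syngeneic), 581 and 521 (isotype), 602 and 574 (day 0), and 631 and 548 (day 3). Its isotype change was -0.13 ± 0.20, and all arrays lay within a narrow range. The catalytic subunit of polymerase delta, Pold1 (1056 on the syngeneic array and 978 to 1379 on the allogeneic arrays), changed by -0.01. Its small subunit Pold2 (1264 on the syngeneic array and 1101 to 1384 on the allogeneic arrays) changed by 0.11. Of the primase subunits, which make the RNA primers, Prim1 read 1548 (syngeneic), 2029.9 and 2287 (isotype), 1762 and 1700.0 (day 0), and 1809.7 and 1898 (day 3). Both isotype arrays were above all others, at a change of 0.46 ± 0.20 (adjusted p = 0.225). Prim2 read 526 (syngeneic), 616 and 799.6 (isotype), 706 and 479 (day 0), and 638 and 415 (day 3), with arrays of the same group far apart and an isotype change of 0.39. Pole2 (529 on the syngeneic array and 639 to 875 on the allogeneic arrays) changed by 0.49, and Pola2 (812 on the syngeneic array and 613 to 1281 on the allogeneic arrays) by 0.12.

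The clamp, the clamp loader and the other fork proteins had a median log2 change of 0.48, with none of 10 called. Pcna, the sliding clamp, read 13286 (syngeneic), 18544 and 18283 (isotype), 17222 and 17630.3 (day 0), and 18256 and 17320.0 (day 3). The 6 allogeneic arrays lay within 1.08-fold of each other and all above the syngeneic array, with an isotype change of 0.47 ± 0.19 (adjusted p = 0.203). The subunits of the clamp loader RFC lay on both sides of 0, and none passed. Rfc5 (1288 on the syngeneic array and 1791 to 2342 on the allogeneic arrays) had an isotype change of 0.67. Rfc3 read 294 (syngeneic), 569 and 414 (isotype), 413 and 449 (day 0), and 818 and 455 (day 3), with an isotype change of 0.64. Rfc2 read 1478 (syngeneic), 1169 and 1346 (isotype), 1674 and 1507 (day 0), and 1964 and 1802 (day 3), which put the isotype arrays lowest and the day 3 arrays highest (isotype change -0.23 ± 0.21, adjusted p = 0.573). Rfc4 read 409.9 (syngeneic), 418 and 369.7 (isotype), 468 and 675 (day 0), and 597 and 659 (day 3). Its isotype arrays lay around the syngeneic signal (isotype change -0.05 ± 0.26) and its anti-ICOSL arrays above.

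RPA coats single-stranded DNA, and FEN1 and LIG1 finish the lagging strand. Rpa1 (5896 on the syngeneic array and 7040.0 to 8660.1 on the allogeneic arrays) and Lig1 (1849 on the syngeneic array and 2711 to 3095 on the allogeneic arrays) had isotype changes of 0.54 and 0.63, with all allogeneic arrays above the syngeneic one. Rpa2 read 961 (syngeneic), 1332 and 1320.3 (isotype), 1565 and 1748 (day 0), and 1562 and 1596 (day 3), an isotype change of 0.44 ± 0.19 (adjusted p = 0.237). Fen1 read 2695 (syngeneic), 4942 and 2927 (isotype), 4097 and 3553 (day 0), and 3139 and 2539.6 (day 3). Its isotype arrays differed from each other by more than their mean differed from the syngeneic array (change 0.49 ± 0.34). Ung, which removes uracil from DNA, read 355 (syngeneic), 299 and 344 (isotype), 419.7 and 348 (day 0), and 339.9 and 284 (day 3) and had an isotype change of -0.13 ± 0.22 with the syngeneic signal inside the allogeneic range.

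Of the chromatin genes, Uhrf1, which guides maintenance of DNA methylation after replication, read 1031 (syngeneic), 1545 and 1564 (isotype), 1505 and 1328 (day 0), and 1367 and 1341 (day 3). All allogeneic arrays exceeded the syngeneic one, at an isotype change of 0.57 ± 0.19 (adjusted p = 0.150). Chaf1b, a subunit of the histone chaperone CAF-1 (441 on the syngeneic array and 544 to 709 on the allogeneic arrays), changed by 0.46. Slbp, the protein that binds the stem-loop of histone mRNA (3835 on the syngeneic array and 4236 to 5489 on the allogeneic arrays), changed by 0.39. None of the 3 was called.

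Among the regulators of S phase entry, Ccne1, which encodes cyclin E1, read 606 (syngeneic), 969 and 1243 (isotype), 1149 and 1256 (day 0), and 1237 and 1658 (day 3). The allogeneic arrays were all higher, and 1 day 3 array was the highest (isotype change 0.81 ± 0.26, adjusted p = 0.138). Ccne2, which encodes cyclin E2, read 144 (syngeneic), 212 and 329.9 (isotype), 343 and 288 (day 0), and 200.0 and 385 (day 3), also with all allogeneic arrays above but with wide gaps between arrays of a group (isotype change 0.70 ± 0.39, adjusted p = 0.340). E2f1, a factor that turns on S phase genes, read 484 (syngeneic), 459.6 and 574 (isotype), 449.7 and 348 (day 0), and 428 and 630.3 (day 3). The syngeneic signal fell in the middle of the others, with an isotype change of 0.08 ± 0.30 (adjusted p = 0.907).

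The isotype calls rest on few arrays and on the settings. Without isotype replicate 1 or 2 no member passed: Rrm2 then had an adjusted p of 0.0528 and 0.0597, Cdc45 of 0.0749 and 0.0721, and Tk1 of 0.0880 and 0.109. Without either day 3 array Cdc45 (0.0554) and Tk1 (0.0636) were lost, and without either day 0 array Tk1 (0.0733). A fit to the compared groups alone called none (adjusted p 0.0863, 0.103 and 0.126 for Rrm2, Cdc45 and Tk1). With no filter on low signals Rrm2 alone was called (0.0375, beside 0.0553 for Cdc45 and 0.0770 for Tk1), and with the replicate number as a block also Rrm2 alone (0.0406, beside 0.0608 and 0.0691). A pseudocount of 16 lost Tk1 (0.0529). With the trend and robust options of limma's eBayes 13 members passed (31%, beside 11.6% of all probe sets), all of them higher. Centring the arrays on their medians left 3 members below 0 in place of 6.

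With all 3 allogeneic groups set against the syngeneic array, 4 members were called higher (9.52%, beside 9.74% of all probe sets called and 3.98% called higher) and none lower (5.76%). Rrm2 rose by 1.36 ± 0.17 (adjusted p = 0.00660) and Cdc45 by 1.13 ± 0.18 (adjusted p = 0.0144). Tk1 rose by 1.00 ± 0.18 (adjusted p = 0.0234) and Dut by 0.78 ± 0.18 (adjusted p = 0.0460). The other probe set of Dut changed by 0.60 and was not called (adjusted p = 0.147). Just outside the threshold were Ccne1 at 0.97 ± 0.23 (adjusted p = 0.0515), Cdc6 at 0.83 ± 0.20 (adjusted p = 0.0521) and Mcm5 at 0.69 ± 0.17 (adjusted p = 0.0579). The syngeneic array was the lowest of the 7 for 27 members (64.3%, beside 26% of all probe sets) and the highest for none (26.4%). The median change was 0.43, beside 0.01 over all probe sets, and 37 members lay above 0 (88.1%, beside 51.1%), or 36 of 41 without Tyms. The calls of Rrm2 and Cdc45 held in each alternative that could be run, each left-out allogeneic array included. The single syngeneic array could not be left out, since the comparison rests on it. Dut was lost without any 1 allogeneic array (adjusted p 0.0669 to 0.0997), with a pseudocount of 16 (0.0602), with no filter (0.0902) and with the replicate number as a block (0.103). Tk1 was lost without day 0 replicate 1 (0.0557), day 0 replicate 2 (0.0550) or day 3 replicate 1 (0.0513), and with no filter (0.0511). This comparison shares the syngeneic and isotype arrays with the one above. The trend and robust options called 15 members (35.7%, beside 15.2% of all probe sets).

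**Figure D3:**
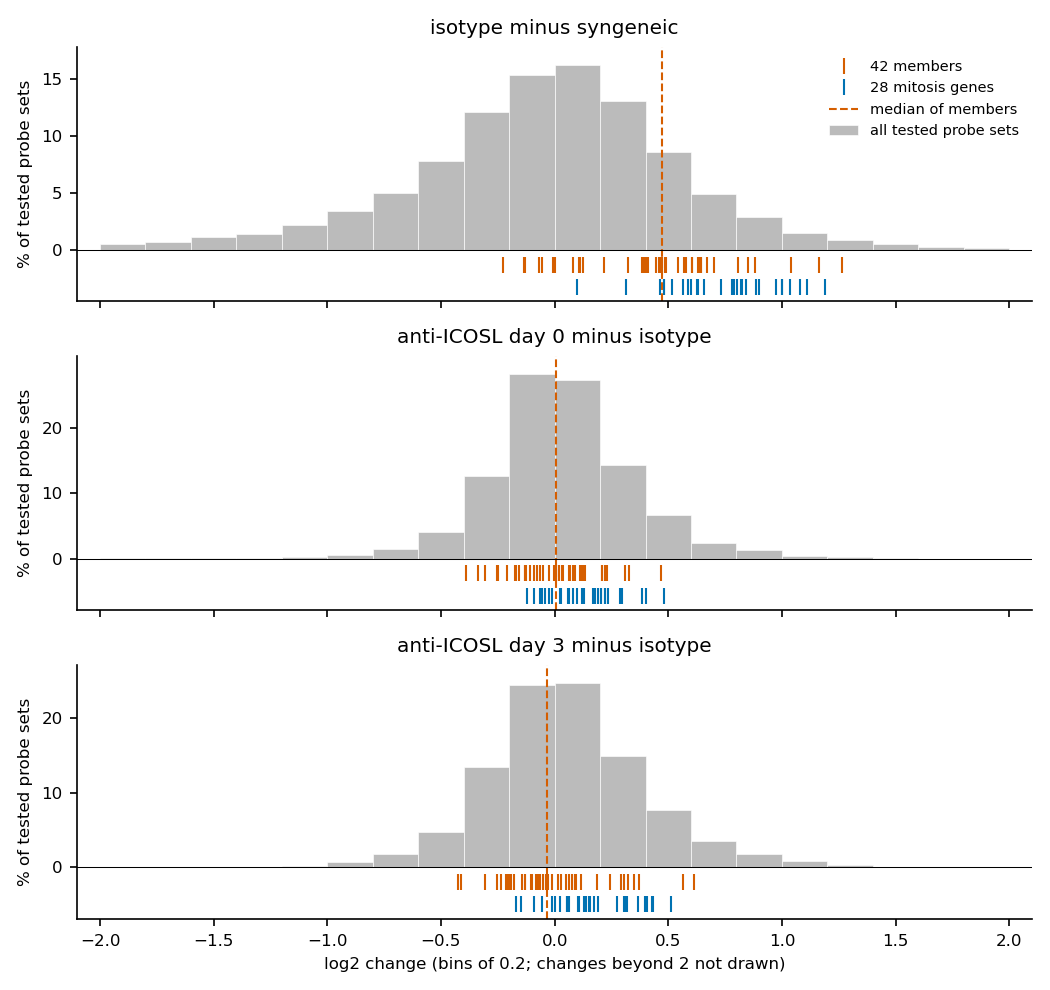
Grey bars give the share of tested probe sets in bins of 0.2 of log2 change; ticks under the axis are the 42 members (upper row) and 28 mitosis genes (lower row), and the dashed line is the members' median. In isotype minus syngeneic the median of the members is 0.47 and that of the mitosis genes 0.78, while against isotype the members' medians are 0.00 (day 0) and -0.04 (day 3).

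Other cell cycle genes were set beside the members, from lists drawn up for these arrays. Of 33 tested further replication genes 1 was called higher in the isotype comparison and none lower (beside 2.49% and 4.12% of all probe sets). It was Asf1b, which encodes a histone chaperone, with a log2 change of 1.35 ± 0.19 (adjusted p = 0.0128). The list's median was 0.24 and 24 of its genes lay above 0. Against all allogeneic groups Hells, Dbf4 and Exo1 were called as well, which made 4 of 33, beside 3.98% of all probe sets called higher. Of 28 tested mitosis genes all lay above 0 in the isotype comparison, with a median of 0.78. Of these, 4 were called higher (beside 2.49% of all probe sets): Plk1 at 1.19, Aurkb at 1.08, Cdk1 at 1.00 and Cenpf at 1.00. Against all allogeneic groups 12 of the 28 mitosis genes were called higher, beside 3.98% of all probe sets. Of 19 tested genes of G1 control none was called higher and 1 lower in the isotype comparison (beside 2.49% and 4.12% of all probe sets). It was Ccnd1, which encodes cyclin D1 (log2 change -1.49 ± 0.25, adjusted p = 0.0232). The median of that list was 0.06. Differences between these lists were not tested.

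Markers of cell types moved with the same comparison, and their part in the members' values was not tested. Summed signals of T cell markers (9 of 11 measured) were 26838 on the syngeneic array and 37055 to 46560 on the allogeneic ones, and those of B cell markers (7 of 8) were 23166 and 10341 to 15865. Macrophage markers (10 of 10) summed to 47763 and to 7110.2 to 12112, neutrophil markers (7 of 7) to 37153 and to 9645 to 13645, and erythroid precursor markers (9 of 10) to 25603 and to 6447 to 10664. Plasma cell markers (4 of 4) summed to 68479 and to 15930 to 33111, early progenitor markers (3 of 3) to 3276 and to 1980 to 2535, natural killer markers (2 of 3) to 600.3 and to 347 to 838, and exocrine pancreas genes (7 of 12) to 5038 and to 949 to 2479. Sums also differed between the antibody groups. Macrophage sums were 7110.2 to 7577 with isotype, 11963 to 12112 from day 0 and 9458 to 10465 from day 3. B cell sums were 14094 to 15865, 10341 to 11246 and 10426 to 10825. From day 0 neutrophil, plasma cell, early progenitor and natural killer sums were also above isotype. T cell, erythroid precursor and exocrine pancreas sums were below it. Their part in the antibody comparisons was not tested. No marker was listed at 0 on any array. The dimmest T cell marker read 745 on the syngeneic array and 1370 to 1630 on the others, and Cd79a, a chain of the B cell receptor, read 4847 and 2078 to 4009. The dimmest B cell marker read 17.5 to 76.8 over the arrays, under the filter. The ratio of 3′ to 5′ Gapdh control signals was 0.957 on the syngeneic array and 0.767 to 0.865 on the others, and for Actb it lay between 0.967 and 1.03 throughout. Array medians ran from 145.3 to 174.3, and the number of arrays limits the precision.

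Antibody against ICOSL from day 0 left the members near the isotype level. None of 42 was called by limma, as none of all 15372 probe sets was (0%), and 1 had an unadjusted p under 0.05 (2.38%, beside 7.18% of all probe sets). That was Mcm4, at a log2 change of -0.39 ± 0.15 (unadjusted p = 0.0417, adjusted p = 0.683). No alternative called a member, the trend and robust options included. The median change was 0.00, beside 0.02 over all probe sets, with 23 members above 0 (54.8%, beside 52.7%) and 19 below. Centring the arrays on their medians turned that balance to 16 above and 26 below, with a median of -0.04. For 15 members the day 0 and isotype arrays did not overlap: 5 were higher under the antibody (11.9%, beside 19.4% of all probe sets) and 10 lower (23.8%, beside 16.2%). The 95% interval of every member stayed within a 2-fold change either way, its bounds running from -0.93 to 0.98 on the log2 scale. Such intervals hold the spread between arrays of pooled RNA and set no bound for single mice.

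The largest positive values belonged to Rfc4 at 0.47 ± 0.21 (interval -0.04 to 0.98), Rfc2 at 0.33 ± 0.17 (-0.08 to 0.74) and Rpa2 at 0.31 ± 0.16 (-0.07 to 0.69). The most negative after Mcm4 were E2f1 at -0.34 ± 0.24 and Prim1 at -0.31 ± 0.16. The members that had risen over the syngeneic array changed by 0.21 ± 0.15 (Rrm2), -0.05 ± 0.16 (Cdc45), 0.00 ± 0.17 (Tk1) and 0.12 ± 0.17 (Dut). For Cdc45, Tk1 and Dut the arrays of the 2 groups overlapped, while both Rrm2 arrays lay above both isotype arrays.

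**Figure D4:**
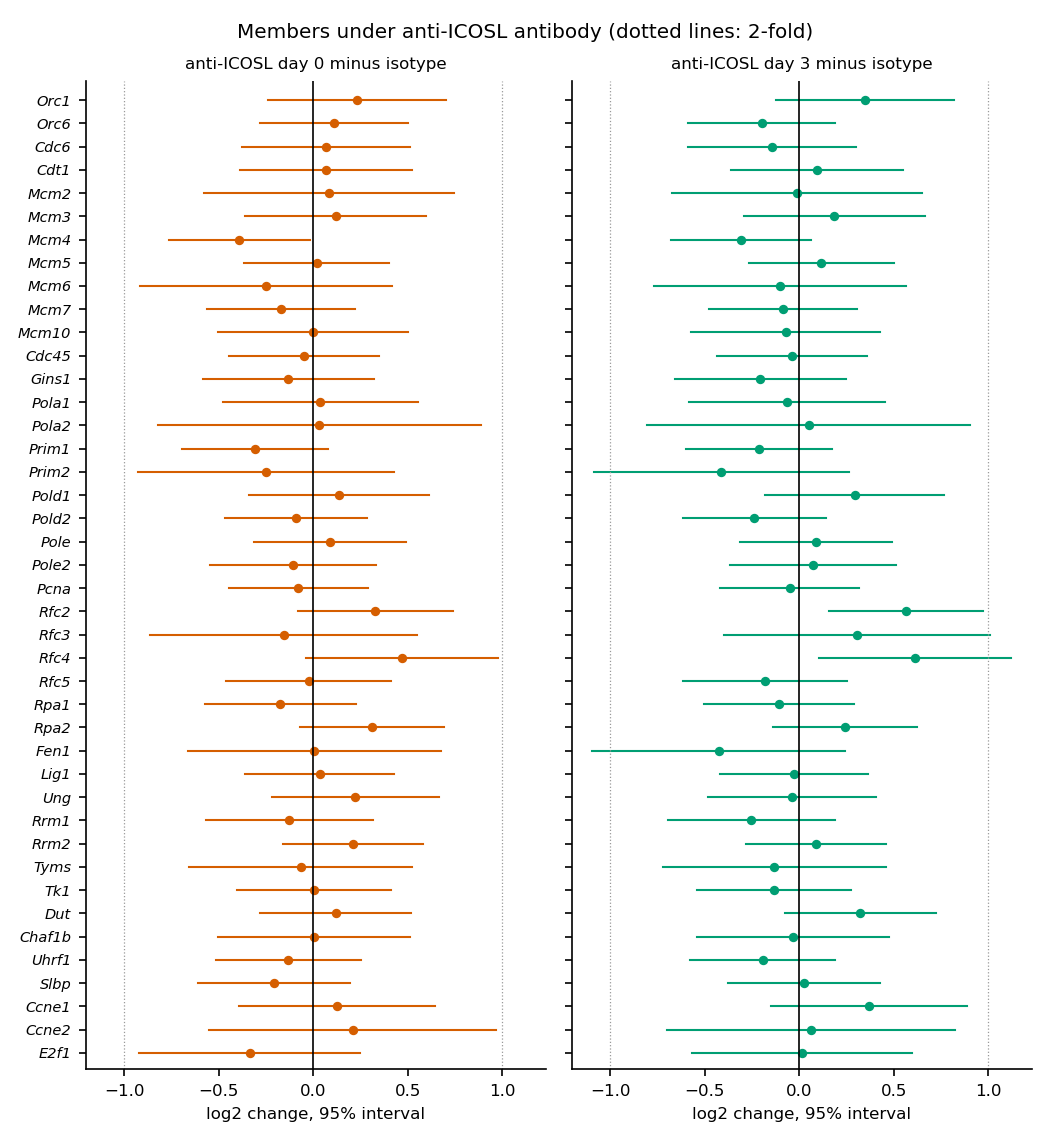
Points are the log2 change of each of the 42 members against isotype, with the 95% interval of the limma fit as a bar and dotted lines at a 2-fold change. Every interval for the start on day 0 stays inside the dotted lines, and for the start on day 3 those of Prim2, Rfc3, Rfc4 and Fen1 reach past them.

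With the antibody from day 3 the picture was close to that. None of 42 was called by limma (0% of all probe sets) or under any alternative. 2 members had an unadjusted p under 0.05 (4.76%, beside 10.2% of all probe sets): Rfc2 at 0.57 ± 0.17 (unadjusted p = 0.0143, adjusted p = 0.400) and Rfc4 at 0.61 ± 0.21 (unadjusted p = 0.0256, adjusted p = 0.442). Both are subunits of the clamp loader. Of its other members, Rfc3 had a higher mean signal from day 3 (637, beside 491 with isotype) and Rfc5 a lower one (1828, beside 2092). The Rfc3 arrays read 818 and 455 from day 3 and 569 and 414 with isotype. For both genes the day 3 and isotype arrays overlapped. The median change was -0.04, beside 0.03 over all probe sets, with 18 members above 0 (42.9%, beside 54.3%) and 24 below. Centring the arrays on their medians moved it to -0.14, with 10 above and 32 below. Arrays did not overlap for 16 members, 8 higher (19%, beside 24.3%) and 8 lower (19%, beside 18.8%). The next largest value was that of Ccne1 at 0.37 ± 0.22. The most negative were Fen1 at -0.42 ± 0.28, Prim2 at -0.41 ± 0.28 and Mcm4 at -0.31 ± 0.15. The other probe sets of Fen1 and Prim2 went the other way, at 0.27 and 0.57, and that of Prim2 also in the day 0 comparison (0.68, beside -0.25 for the counted one). For 38 of the 42 members the 95% interval stayed within 2-fold. Rrm2 changed by 0.09 ± 0.15, Cdc45 by -0.04 ± 0.16, Tk1 by -0.13 ± 0.17 and Dut by 0.32 ± 0.17, and only Rrm2 and Dut had both day 3 arrays above both isotype arrays.

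Both comparisons use the same isotype arrays, so they are set side by side and no agreement is read from them. Rfc2, Rfc4, Rpa2 and Rrm2 had all 4 anti-ICOSL arrays above both isotype arrays. Mcm4, Prim1, Pold2, Pcna, Rpa1 and Uhrf1 had all 4 below. Second probe sets did not always repeat these values. For Rfc4 the other probe set changed by -0.19 (day 0) and 0.21 (day 3), where the counted one changed by 0.47 and 0.61. For Rpa2 the other changed by -0.14 and -0.03, and for Mcm4 by 0.00 and -0.14. For Rrm2 one further probe set changed by 0.25 and 0.15, beside 0.21 and 0.09 for the counted one, and another by -0.02 and -0.13. Rfc2 had a single probe set.

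Early and late starts of the antibody were also set against each other, and number of doses and time under antibody differ with them. None of 42 members was called by limma (0% of all probe sets), none had an unadjusted p under 0.05 (6.79% of all probe sets), and no alternative called one. The median of day 0 minus day 3 was -0.01, the same as over all probe sets, with 20 members above 0 (47.6%, beside 47.8%) and 22 below. Centring turned that to 25 above and 17 below, with a median of 0.05. Both day 0 arrays exceeded both day 3 arrays for 7 members (16.7%, beside 18.6%) and lay below them for 7 (16.7%, beside 20.4%). The largest differences were those of Fen1 at 0.43 ± 0.28, Orc6 at 0.31 ± 0.16 and Ung at 0.26 ± 0.18, and in the other direction Rfc3 at -0.46 ± 0.29, E2f1 at -0.35 ± 0.24 and Ccne1 at -0.24 ± 0.22. Intervals of Rfc3 and Fen1 reached past 2-fold and those of the other 40 did not. The other probe set of Fen1 differed by -0.23, and that of Rfc3 by 0.03. Summed erythroid precursor markers differed between the same arrays, at 6447 to 7000.4 from day 0 and 9526 to 10664 from day 3. Plasma cell markers did too, at 19000 to 19617 and 33089 to 33111, as did exocrine pancreas genes, at 949 to 1542 and 1764 to 2063. Macrophage markers went the other way, at 11963 to 12112 and 9458 to 10465, as did T cell, neutrophil and natural killer markers. B cell and early progenitor sums overlapped. The part of cell types in these values was not tested.

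Probe sets of a gene did not always give the same value in the isotype comparison either. The members had 73 probe sets, 23 genes having more than 1. Of 26 further probe sets that were tested 21 had the sign of the counted one and 5 the opposite. For Rrm2 the counted value of 1.26 stood beside 1.57 (adjusted p = 0.0101) and 0.70 (adjusted p = 0.103). For Mcm7 0.00 stood beside 0.48, 0.04 and -0.51. For Rpa2 0.44 stood beside 0.97, for Uhrf1 0.57 beside 0.86 and for E2f1 0.08 beside 0.45. Cdc45, Tk1, Cdc6, Pcna and Mcm5 had a single probe set.

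Members with an E2F form in the promoter had a median isotype change of 0.59 (n = 8, range 0.00 to 0.85) and those without one of 0.47 (n = 28, range -0.13 to 1.26). These ranges overlap, and the 3 called members were among those without a match. Against isotype the medians were -0.06 and 0.00 from day 0, and -0.07 and -0.03 from day 3.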

How the data were processed

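Spleen RNA was measured on 7 Affymetrix arrays of 22690 probe sets. The deposited values are MAS5 signal intensities, which the submitters' processing notes name without a version; their scale is linear. The authors' values were used without further scaling (trimmed means 500.18 to 500.19). After 64 controls were left out, a probe set was tested where a group mean reached the 40th percentile of all signals (99.67). Probe sets took their gene from the platform annotation. Log2(signal + 50), which understates folds of dim genes, was fitted with limma 3.58.1 in R 4.3.3, 1 fit over all 4 groups (3 residual and 3.36 prior degrees of freedom). The fit takes the spread of the other groups for the single syngeneic array. P-values are two-sided, adjusted by Benjamini-Hochberg over 15372 probe sets. Errors are standard errors. The procedure was tested on simulated data.

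Genes given with every array are the called ones, the largest and smallest changes of each comparison and 11 fixed names; other members are given by range or change. The members and lists were chosen with earlier results of these data known. Alternatives were other pseudocounts, filters, scalings and probe set rules, a replicate block, the compared groups alone, the trend and robust options, and each array left out. Same-numbered replicates were not paired by the labels or by their deviations (correlations -0.01, 0.07 and 0.04).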

Additional observations from a re-analysis of the deposited data

How the results depend on the processing

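The number of called members moved with the processing, and the direction of the called ones did not. In isotype minus syngeneic 3 members were called (7.14%, beside 6.62% of all probe sets). The count was 1 with no filter on low signals (2.38%, beside 2.4%) and 6 with the filter at the 60th percentile (14.6%, beside 15.6%). It was 1 with the replicate block (2.38%, beside 4.16%) and 0 in a fit to the compared groups alone (0%, beside 2.02%). The trend and robust options of eBayes gave 13 (31%, beside 11.6%). With 1 array left out calls were lost, as given above, and the members' median change was 0.471 to 0.508. Against all allogeneic groups 4 members were called (9.52%, beside 9.74% of all probe sets). The count was 8 with a pseudocount of 100 (19%, beside 11.8%) and 2 with no filter (4.76%, beside 3.7%). It was 11 at the 60th percentile (26.8%, beside 20.6%) and 10 with the mean of a gene's probe sets (23.8%, beside 12%). The trend and robust options gave 15 (35.7%, beside 15.2%) and the replicate block 3 (7.14%, beside 6.15%). With 1 array left out calls were lost, as given above, and the members' median change was 0.414 to 0.454. Centring arrays on their medians gave a median member change of 0.56 in isotype minus syngeneic and -0.135 in day 3 minus isotype. It moved the median of all probe sets in the isotype comparison from -0.01 to 0.08. In the 3 comparisons among allogeneic groups no alternative called a member. Over all probe sets 1017 were called in isotype minus syngeneic, 542 with no filter, 1616 at the 60th percentile, 640 with the replicate block, 311 with the compared groups alone, 1786 with the trend and robust options and 406 to 713 with 1 array left out; 37.7% of the calls were higher in the main setting and 47% with those options. Against all allogeneic groups 1498 were called, 837 with no filter, 946 with the replicate block, 2337 with the options and 944 to 1301 with 1 array left out. Among allogeneic groups 0 were called, but 3, 2 and 6 with a pseudocount of 100, 13, 8 and 7 at the 60th percentile and 21, 5 and 12 with the options (day 0, day 3, and day 0 minus day 3). Members called neither in the main setting nor in the alternative changed sign in 15 of 671 values of isotype minus syngeneic, 16 of 629 against all allogeneic groups, and 47, 43 and 41 of 713 in the others; no called value was reversed. The cause of these shifts was not tested. A fit to the compared groups alone has no counterpart for all groups against syngeneic, and without the syngeneic array neither comparison with it exists. Tyms lay under the filter at the 60th percentile.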
